A study of Mus musculus with 23 samples.

Results

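The genes of cholesterol synthesis and of its control by sterol regulatory element-binding protein 2 (SREBP2) were followed in the mouse ileum as a set of 31 genes. The set held the enzymes from acetoacetyl-CoA to cholesterol, the proteins that sense sterols and release SREBP2, and genes of cholesterol uptake, transport and esterification. Genes were found by their name on the array, and the probe with the highest mean signal stood for a gene. A probe carried the name of 30 of the 31 genes, all 30 were above background on all 23 arrays, and they were tested among 17727 genes. The name *Acat2*, the thiolase at the start of the pathway, was not found on the array.

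Male mice received pregnenolone 16α-carbonitrile (PCN), a steroid that activates the pregnane X receptor (PXR) of rodents, or corn oil alone. PCN was given in corn oil into the peritoneal cavity at 100 mg/kg once a day for 4 days, and tissue was taken at ZT6, with 6 h elapsed since the final dose. The labels call the mice fed at that time, while the study's text calls them semi-fasted. WT mice (C57BL/6J) were bought at 6 weeks of age, whereas Pxr-/- mice, backcrossed on that background, had been bred in house for 10 years, so that genotype and breeding origin cannot be told apart. The arrays came from 6 WT CONT (oil), 5 WT PCN, 6 Pxr-/- CONT and 6 Pxr-/- PCN mice, with 1 array of whole ileum RNA per mouse. The question addressed was how PCN changed each step of the pathway with and without the receptor.

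Cells make cholesterol from acetyl-CoA through mevalonate, the isoprenoid pyrophosphates, squalene and lanosterol. When sterols in the endoplasmic reticulum fall, the escort protein SCAP takes SREBP2 to the Golgi, where proteases cut it, and the freed fragment enters the nucleus and raises transcription of most enzymes of the pathway. INSIG proteins hold SCAP back when sterols are plentiful. The small intestine both makes cholesterol and takes it up from the lumen.

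All values are normalized log2 signals, and a difference of log2 signals is a log2 fold change. The share of probes well above background was 60.9% to 67.3% per array. The *Nr1i2* (PXR) probe did not separate the genotypes, with a range of 11.82 to 12.36 in WT CONT and of 11.42 to 12.27 in Pxr-/- CONT. Whether that probe lies in the deleted part was not analysed here. Of 6 tested genes of a PXR response list, 6 rose with PCN in WT (adjusted p at most 0.05) and 1 in Pxr-/-. All 8 ileal and enterocyte markers were above background on all arrays. B cell markers had a mean of 9.75 and 9.83 in WT PCN replicates 2 and 3 and of 8.32 in Pxr-/- PCN replicate 1, against 6.73 to 7.31 on the other arrays.

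Promoters are shown for *Hmgcs1*, *Mvd*, *Idi1* and *Hsd17b7*, which were among the genes of the set that fell with PCN in Pxr-/- mice (adjusted p at most 0.05). They were chosen after their values were seen. Sequences are from RefSeq (GRCm38.p6), run from 250 bases before to 50 bases after the annotated start and read along the gene's strand. *Hmgcs1* is at chr13:119690101-119690400 (plus strand), *Mvd* at chr8:122443373-122443672 (minus strand), *Idi1* at chr13:8885356-8885655 (plus strand) and *Hsd17b7* at chr1:169969156-169969455 (minus strand). Capitals mark the sterol regulatory element written as TCACNCNAC and the CCAAT box bound by NF-Y, on either strand, so that a CCAAT on the other strand reads ATTGG.
Hmgcs1: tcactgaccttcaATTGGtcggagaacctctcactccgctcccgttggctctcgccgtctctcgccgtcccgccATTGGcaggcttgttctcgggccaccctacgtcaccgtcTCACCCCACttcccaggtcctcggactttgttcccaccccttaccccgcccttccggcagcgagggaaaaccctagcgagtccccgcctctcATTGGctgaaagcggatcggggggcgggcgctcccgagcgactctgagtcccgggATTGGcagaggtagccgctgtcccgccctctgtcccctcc
Mvd: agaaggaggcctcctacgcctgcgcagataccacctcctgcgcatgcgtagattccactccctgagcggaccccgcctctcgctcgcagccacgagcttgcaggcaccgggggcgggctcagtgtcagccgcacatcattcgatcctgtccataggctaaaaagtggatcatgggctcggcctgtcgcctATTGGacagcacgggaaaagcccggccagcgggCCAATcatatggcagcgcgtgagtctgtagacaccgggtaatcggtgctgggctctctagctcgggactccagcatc
Idi1: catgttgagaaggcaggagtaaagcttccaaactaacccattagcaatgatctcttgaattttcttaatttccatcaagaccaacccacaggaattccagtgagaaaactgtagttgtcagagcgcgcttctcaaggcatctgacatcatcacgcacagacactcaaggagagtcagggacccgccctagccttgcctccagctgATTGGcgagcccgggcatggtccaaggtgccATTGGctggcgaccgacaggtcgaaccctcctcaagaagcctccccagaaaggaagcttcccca
Hsd17b7: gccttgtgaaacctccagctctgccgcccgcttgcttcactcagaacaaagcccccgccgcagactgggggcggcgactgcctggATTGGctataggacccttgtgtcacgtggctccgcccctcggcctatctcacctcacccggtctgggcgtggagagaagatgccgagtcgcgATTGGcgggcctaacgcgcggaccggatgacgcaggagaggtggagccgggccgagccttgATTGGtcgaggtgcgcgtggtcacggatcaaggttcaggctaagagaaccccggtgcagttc

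The reference table held promoters of 25 of the 31 members. CCAAT was present in 20 of the 25 (80%), against 41.1% of the 27025 genes in the table, and GGGCGG, the letters of the Sp1 site, in 20 of the 25 (80%), against 38.2%. TCACNCNAC was found in 2 of them, *Hmgcs1*, where it starts 137 bases before the start site, and *Nsdhl*, against 3.15% of all genes. TCACNCCAC, which is one reading of TCACNCNAC, was found in *Hmgcs1* among the members and in 1.44% of all genes. A match describes these letters in this window only.

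PCN lowered transcripts along the cholesterol pathway in Pxr-/- mice, whereas in WT mice no member passed the test (1.44% of all genes rose and 0.401% fell). The difference between the PCN effects in the genotypes passed for no member either (limma, lowest adjusted p = 0.118). In WT mice 3 of 30 members, *Tm7sf2*, *Insig1* and *Scarb1*, were higher at an unadjusted p of at most 0.05, against 7.21% of all genes, and none was lower, against 7.73%. In Pxr-/- mice, 10 of 30 members fell at an adjusted p of at most 0.05 (limma, over all probes), that is 33.3%, against 1.79% of all genes tested. They were *Hmgcs1*, *Pmvk*, *Mvd*, *Idi1*, *Fdps*, *Sqle*, *Hsd17b7* and *Ebp* among the enzymes, the sterol sensor gene *Insig2*, and *Aacs*, which activates acetoacetate for lipid synthesis in the cytosol. *Idi1* was the single member that also passed the 1.5-fold threshold downward, against 0.276% of all genes. Only *Scarb1*, the lipoprotein receptor SR-BI, rose (3.2% of all genes). Over the 23 fits that left out 1 array, significance was lost in 12 for *Mvd*, 10 for *Insig2*, 6 for *Fdps*, 5 for *Ebp*, 5 for *Aacs*, 3 for *Hmgcs1* and 1 for *Hsd17b7*, and in none for *Pmvk*, *Idi1*, *Sqle* and *Scarb1*. Without Pxr-/- PCN replicate 1 all 7 of the former were lost, and without Pxr-/- CONT replicate 1 all but *Hsd17b7*.

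The median change of the 30 members with PCN was -0.27 in Pxr-/- mice and 0.14 in WT mice, with medians over all genes of 0.00 and -0.02. In Pxr-/- mice 25 of 30 members had a lower mean under PCN, against 49.9% of all genes, and in WT mice 25 of 30 had a higher mean, against 43.9%. Of the 30 members, 20 were higher in WT and lower in Pxr-/- mice (66.7%), a pattern that 12.2% of all genes had. Lower in both were 5 members, *Sqle*, *Ebp*, *Insig2*, *Scap* and *Tmem97* (6674 of 17727 genes), and 5 were higher in both (5607 of 17727). Leaving out any single array gave medians of -0.31 to -0.23 in Pxr-/- mice and of 0.06 to 0.21 in WT mice. Without WT PCN replicate 3, 21 members were higher in WT mice and 16 were both higher there and lower in Pxr-/- mice. Without the 3 arrays with high B cell markers, an alternative chosen after seeing the data, these counts were 18 and 13, and the WT median was 0.037.

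**Figure D1:**
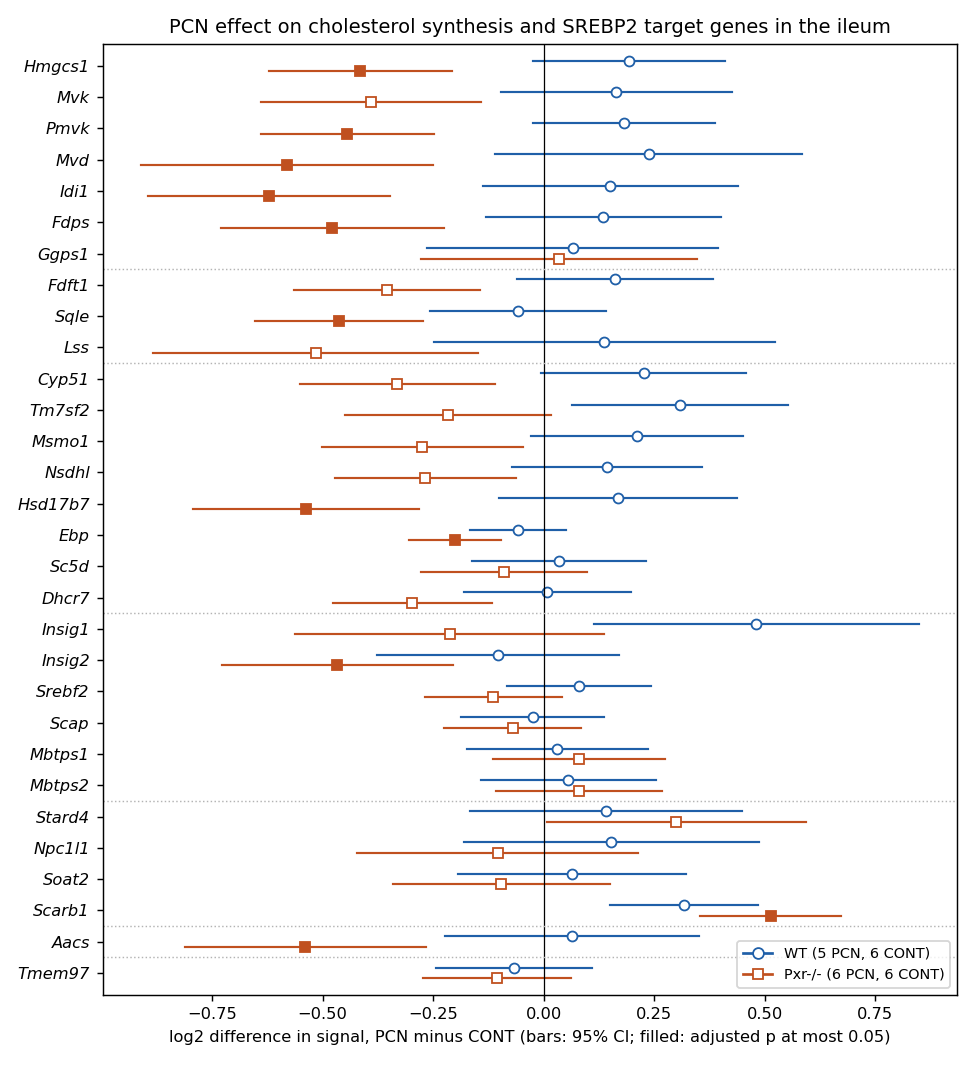
Log2 difference between PCN and CONT for each member in WT (circles) and Pxr-/- mice (squares), with 95% confidence intervals, in pathway order from top to bottom with dotted lines between stages. Filled symbols have an adjusted p of at most 0.05: 11 squares, of which Scarb1 alone lies above 0, and no circle.

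Among the genes of the mevalonate and isoprenoid steps, the median change with PCN was -0.44 in Pxr-/- mice and 0.16 in WT mice. Of the 7 measured members, 5 fell in Pxr-/- mice at an adjusted p of at most 0.05 (1.79% of all genes). *Hmgcs1*, the synthase that makes HMG-CoA, ranged from 15.09 to 15.59 in Pxr-/- CONT (median 15.36) and from 14.82 to 15.17 in Pxr-/- PCN (median 14.94). In WT mice it ranged from 15.12 to 15.40 in CONT (median 15.28) and read 15.63, 15.59, 15.74, 15.09 and 15.31 on the 5 PCN arrays. The Pxr-/- groups overlapped slightly, and 3 WT PCN arrays were above all WT CONT arrays while another lay below them. The difference was -0.41 ± 0.10 (SE; adjusted p = 0.0236) in Pxr-/- mice and 0.19 ± 0.10 (adjusted p = 0.495) in WT mice.

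*Pmvk*, the kinase that makes mevalonate pyrophosphate, ranged from 13.20 to 13.64 in Pxr-/- CONT (median 13.42) and from 12.79 to 13.13 in Pxr-/- PCN (median 13.00). Its WT CONT range was 13.00 to 13.24 (median 13.08), and the WT PCN arrays read 13.35, 13.32, 13.60, 12.93 and 13.22. All Pxr-/- PCN arrays were below all Pxr-/- CONT arrays. *Pmvk* fell by 0.44 ± 0.09 in Pxr-/- mice (adjusted p = 0.0129), and its WT difference was 0.18 ± 0.10 (adjusted p = 0.5).

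*Mvd*, which decarboxylates mevalonate pyrophosphate to isopentenyl pyrophosphate, ranged from 10.87 to 11.81 in Pxr-/- CONT (median 11.43) and from 10.53 to 11.05 under PCN (median 10.81). In WT CONT it ranged from 10.94 to 11.41 (median 11.17), and WT PCN arrays read 11.69, 11.58, 11.82, 10.92 and 11.07. Both comparisons overlapped, and the WT PCN arrays fell apart into 3 high and 2 low values. *Mvd* fell by 0.58 ± 0.16 in Pxr-/- mice, or 1.49-fold (adjusted p = 0.0448), and its WT difference was 0.24 ± 0.17 (adjusted p = 0.637).

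*Idi1*, the isomerase that interconverts the isoprenoid building blocks, ranged from 12.48 to 12.98 in Pxr-/- CONT (median 12.59) and from 11.60 to 12.31 in Pxr-/- PCN (median 12.05). The WT CONT range was 12.33 to 12.64 (median 12.46), and WT PCN arrays read 12.61, 12.63, 13.17, 12.20 and 12.44. The Pxr-/- groups did not overlap and the WT groups did. At -0.62 ± 0.13 (adjusted p = 0.013), or 1.54-fold lower, this was the largest fall of any member in Pxr-/- mice. The WT difference was 0.15 ± 0.14 (adjusted p = 0.74).

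*Fdps*, which builds farnesyl pyrophosphate, ranged from 13.83 to 14.25 in Pxr-/- CONT (median 14.13) and from 13.27 to 13.93 in Pxr-/- PCN (median 13.54). Its WT CONT values lay between 13.65 and 13.87 (median 13.82), and WT PCN arrays read 13.94, 14.06, 14.42, 13.51 and 13.66. The 5 WT PCN arrays spread to both sides of the 6 narrow control values. *Fdps* fell by 0.48 ± 0.12 in Pxr-/- mice (adjusted p = 0.0312), and its WT difference was 0.13 ± 0.13 (adjusted p = 0.753).

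The other measured members of these steps did not pass the test. *Mvk*, mevalonate kinase, had a difference of -0.39 ± 0.12 in Pxr-/- mice (adjusted p = 0.0701), and its second, dimmer probe gave -0.54 (adjusted p = 0.0312). In WT mice the main *Mvk* probe had 0.16 ± 0.13. *Ggps1*, which makes the geranylgeranyl pyrophosphate used to modify proteins and so stands on a branch away from sterols, had 0.03 ± 0.15 in Pxr-/- and 0.07 ± 0.16 in WT mice. For *Acat2*, a single probe named *Acat3* lists transcripts of both genes and cannot separate them. That probe had a difference of -0.25 ± 0.11 in Pxr-/- mice (adjusted p = 0.191) and of 0.16 ± 0.11 in WT mice.

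In the steps to squalene and lanosterol the median change was -0.46 in Pxr-/- and 0.14 in WT mice. *Sqle*, squalene epoxidase and a rate-limiting enzyme of the later pathway, ranged from 14.29 to 14.67 in Pxr-/- CONT (median 14.43) and from 13.80 to 14.14 in Pxr-/- PCN (median 14.03). In WT CONT it ranged from 14.08 to 14.47 (median 14.24), and WT PCN arrays read 14.21, 14.17, 14.51, 14.05 and 13.94. All Pxr-/- PCN arrays lay below all Pxr-/- CONT arrays, and the WT groups overlapped. *Sqle* fell by 0.46 ± 0.09 in Pxr-/- mice (adjusted p = 0.00796, the lowest among the members that fell), and in WT mice it had -0.06 ± 0.10.

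*Lss*, which folds epoxysqualene into lanosterol, ranged from 10.55 to 11.32 in Pxr-/- CONT (median 10.90) and from 10.08 to 10.62 in Pxr-/- PCN (median 10.47). The WT CONT range was 10.46 to 10.95 (median 10.77), and WT PCN arrays read 10.88, 10.88, 11.75, 10.45 and 10.33. WT PCN replicate 3 was the highest of all 23 arrays for this gene. The Pxr-/- difference of -0.52 ± 0.18 missed the threshold (adjusted p = 0.105), and without WT PCN replicate 3 the WT difference turned from 0.14 to -0.10. The dimmer *Lss* probes gave -0.63 (adjusted p = 0.0395) and -0.22 (adjusted p = 0.384) in Pxr-/- mice. *Fdft1*, squalene synthase, had -0.35 ± 0.10 in Pxr-/- mice (adjusted p = 0.0535) and 0.16 ± 0.11 in WT mice.

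Between lanosterol and cholesterol, 2 of 8 enzymes fell in Pxr-/- mice at an adjusted p of at most 0.05 (1.79% of all genes). The median change was -0.27 in Pxr-/- and 0.16 in WT mice. *Hsd17b7*, a ketosteroid reductase of C4 demethylation, ranged from 12.08 to 12.49 in Pxr-/- CONT (median 12.27) and from 11.38 to 11.96 in Pxr-/- PCN (median 11.80). Its WT CONT range was 11.92 to 12.24 (median 12.07), and WT PCN arrays read 12.40, 12.26, 12.74, 11.93 and 11.80. The Pxr-/- groups did not overlap, and 3 WT PCN arrays stood above all WT CONT arrays. *Hsd17b7* fell by 0.54 ± 0.12 (adjusted p = 0.0188) in Pxr-/- mice, and its WT difference was 0.17 ± 0.13 (adjusted p = 0.674).

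*Ebp*, the sterol isomerase, varied little within a group: it ranged from 14.36 to 14.54 in Pxr-/- CONT (median 14.50) and from 14.25 to 14.35 in Pxr-/- PCN (median 14.28). In WT CONT it ranged from 14.38 to 14.50 (median 14.41), and WT PCN arrays read 14.31, 14.28, 14.44, 14.36 and 14.43. The Pxr-/- groups did not overlap. Its fall of 0.20 ± 0.05 (adjusted p = 0.028) was the smallest in size among the members that fell. In WT mice it had -0.06 (adjusted p = 0.734).

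*Tm7sf2*, a sterol C14 reductase, ranged from 12.22 to 12.62 in Pxr-/- CONT (median 12.53) and from 11.92 to 12.65 in Pxr-/- PCN (median 12.21). In WT CONT it ranged from 12.12 to 12.64 (median 12.52), and WT PCN arrays read 12.68, 12.80, 12.99, 12.68 and 12.75. The WT groups did not overlap, as for 1.88% of all genes upward, yet the difference of 0.31 ± 0.12 did not pass (adjusted p = 0.27). The Pxr-/- difference was -0.22 ± 0.11 (adjusted p = 0.294).

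The other 5 enzymes of this stage had Pxr-/- differences between -0.33 and -0.09 and none passed. *Cyp51*, the lanosterol demethylase, had -0.33 ± 0.11 (adjusted p = 0.0829), and *Dhcr7*, the last reductase before cholesterol, had -0.30 ± 0.09 (adjusted p = 0.058). *Msmo1* and *Nsdhl*, which remove the C4 methyl groups with *Hsd17b7*, had -0.27 ± 0.11 and -0.27 ± 0.10. *Sc5d*, the desaturase, had -0.09 ± 0.09, and its dimmer probe pointed the other way at 0.21. In WT mice *Cyp51* had 0.23 (adjusted p = 0.44), *Msmo1* 0.21, *Nsdhl* 0.14, *Sc5d* 0.03 and *Dhcr7* 0.01.

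**Figure D2:**
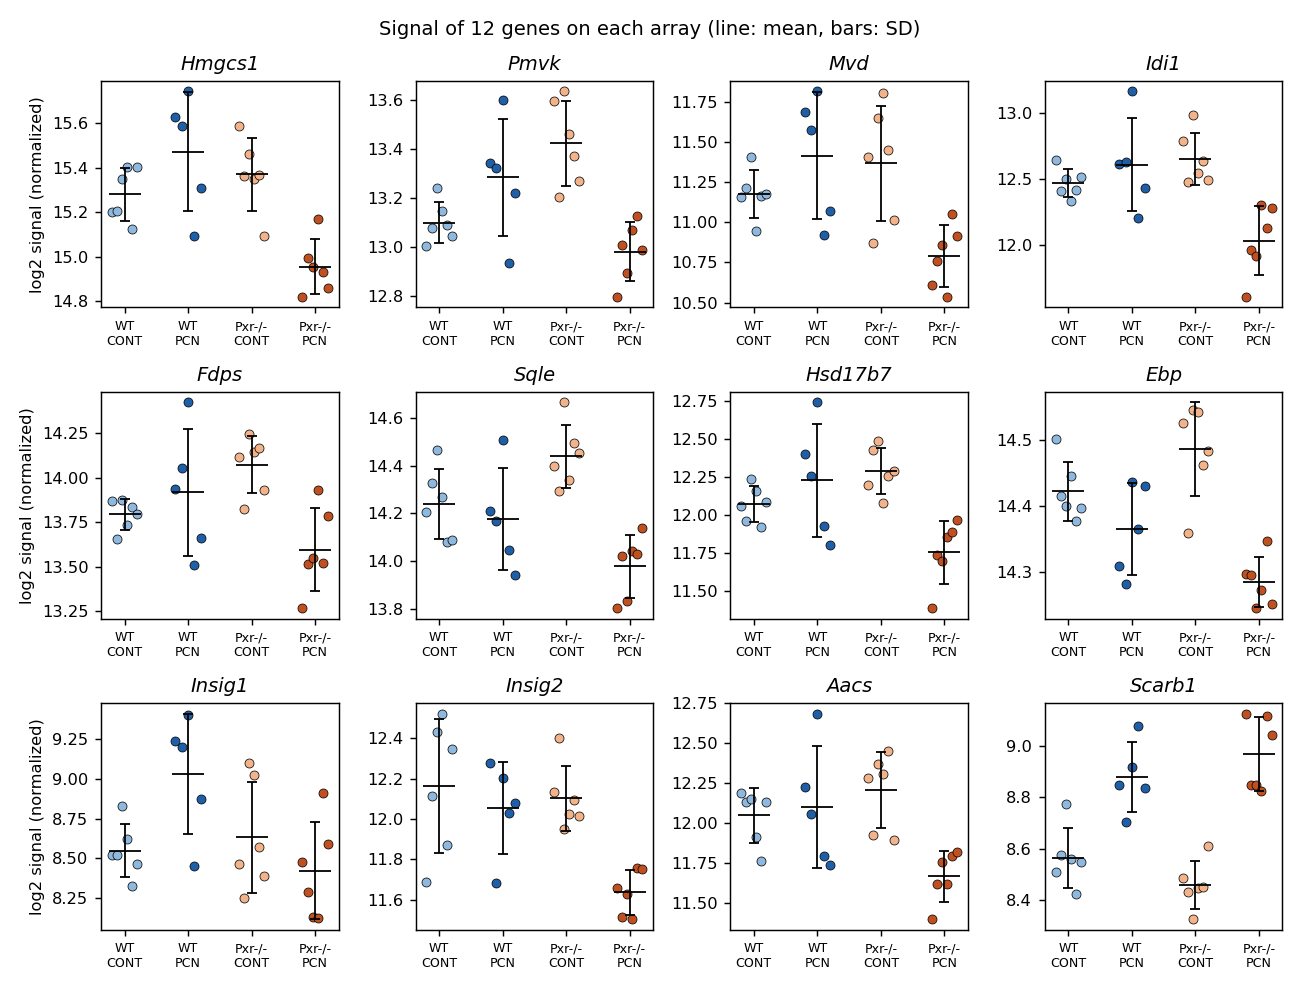
Normalized log2 signal of 12 members on each array, by group, with the mean and SD. In Pxr-/- PCN the points of Pmvk, Idi1, Sqle, Hsd17b7, Ebp, Insig2 and Aacs lie below all Pxr-/- CONT points and those of Scarb1 above them. The axes differ between panels and do not start at 0.

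The groups did not overlap downward in Pxr-/- mice for 7 of 30 members, *Pmvk*, *Idi1*, *Sqle*, *Hsd17b7*, *Ebp*, *Insig2* and *Aacs*, against 1.27% of all genes. At an unadjusted p of at most 0.05, 17 of 30 members were lower, against 11.3% of all genes. Of 33 further probes for 22 members, 30 had the same sign as the main probe in Pxr-/- mice, and 8 members had a single probe. The further probe of *Pmvk* also passed there (adjusted p = 0.0231). Those of *Hmgcs1* (adjusted p = 0.337), *Sqle* (0.401), *Hsd17b7* (0.0576 and 0.0551) and *Ebp* (0.073) did not.

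The genes that sense sterols and release SREBP2 moved less than the enzymes, with a median of -0.09 in Pxr-/- and 0.04 in WT mice. *Insig2*, an endoplasmic reticulum anchor for SCAP, ranged from 11.95 to 12.40 in Pxr-/- CONT (median 12.06) and from 11.50 to 11.76 in Pxr-/- PCN (median 11.64). In WT CONT it ranged from 11.69 to 12.52 (median 12.23), and WT PCN arrays read 12.28, 11.68, 12.20, 12.03 and 12.08. The Pxr-/- groups did not overlap, and the WT groups overlapped widely. *Insig2* had a difference of -0.10 in WT mice (adjusted p = 0.835) and fell by 0.47 ± 0.13 in Pxr-/- mice (adjusted p = 0.0416). Its next probe gave -0.50 (adjusted p = 0.024), and its dimmest probe gave -0.38 and did not pass (adjusted p = 0.126).

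*Insig1*, the other anchor and itself a target of SREBP2, ranged from 8.25 to 9.10 in Pxr-/- CONT (median 8.52) and from 8.12 to 8.91 in Pxr-/- PCN (median 8.38). Its WT CONT range was 8.33 to 8.83 (median 8.52), and WT PCN arrays read 9.24, 9.20, 9.41, 8.45 and 8.88. With 4 of 5 WT PCN arrays above all WT CONT arrays, it had the largest WT difference of the members, 0.48 ± 0.18, or 1.4-fold, which did not pass (adjusted p = 0.24). The Pxr-/- difference was -0.21 ± 0.17 (adjusted p = 0.519).

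*Srebf2*, which encodes SREBP2, had -0.11 ± 0.07 in Pxr-/- (adjusted p = 0.419) and 0.08 ± 0.08 in WT mice. *Scap*, the escort, had -0.07 ± 0.07 and -0.02 ± 0.08. *Mbtps1* and *Mbtps2*, the Golgi proteases that cut SREBP2, both had 0.08 ± 0.09 in Pxr-/- mice, with 0.03 and 0.06 in WT mice. Transcript levels of these genes do not report how much SREBP2 is cut.

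Among the genes of cholesterol uptake, transport and esterification, *Scarb1* moved against the enzymes. It ranged from 8.32 to 8.61 in Pxr-/- CONT (median 8.45) and from 8.83 to 9.13 in Pxr-/- PCN (median 8.95). In WT CONT it ranged from 8.42 to 8.78 (median 8.55), and WT PCN arrays read 8.85, 8.71, 8.92, 9.08 and 8.84. All 6 Pxr-/- PCN arrays were above all Pxr-/- CONT arrays, as for 1.91% of all genes, and 4 of 5 WT PCN arrays were above all WT CONT arrays.

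*Scarb1* rose by 0.51 ± 0.08 in Pxr-/- mice, or 1.43-fold (adjusted p = 0.00101). The WT difference of 0.32 ± 0.08 lay just outside the threshold (adjusted p = 0.0538) and passed under 5 of the 16 other settings that kept all arrays or left out several. Its second probe, with a mean signal of 5.6, had 0.03 in Pxr-/- mice. The difference between the PCN effects was -0.20 ± 0.11 (adjusted p = 0.999).

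The remaining genes of this kind did not pass. *Stard4*, a sterol carrier between membranes, had 0.30 ± 0.14 in Pxr-/- mice (adjusted p = 0.245). *Npc1l1*, the transporter for cholesterol from the lumen, had -0.10 ± 0.15, and *Soat2*, which esterifies cholesterol for chylomicrons, had -0.10 ± 0.12. *Tmem97*, a sterol-regulated membrane protein of the sigma-2 receptor, had -0.10 ± 0.08. In WT mice *Stard4* had 0.14, *Npc1l1* 0.15, *Soat2* 0.06 and *Tmem97* -0.07.

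*Aacs* ranged from 11.89 to 12.45 in Pxr-/- CONT (median 12.29) and from 11.40 to 11.82 in Pxr-/- PCN (median 11.69). The WT CONT range was 11.76 to 12.19 (median 12.13), and WT PCN arrays read 12.22, 12.06, 12.69, 11.79 and 11.74. The Pxr-/- groups did not overlap, and WT PCN replicate 3 again stood above the other WT arrays. *Aacs* fell by 0.54 ± 0.13 in Pxr-/- mice, or 1.45-fold (adjusted p = 0.0255), and its WT difference was 0.06 ± 0.14.

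The difference between the PCN effects, WT minus Pxr-/-, was tested directly as the interaction, which holds the Pxr-/- values already given. No member passed the adjusted threshold in either direction (0.118% of all genes upward and 0.00564% downward). At an unadjusted p of at most 0.05, 17 of 30 members had the higher change in WT, against 2.13% of all genes, and none had the lower change, against 2.93%. The count was 3 within wash batch 1 and 11 without the 3 arrays with high B cell markers. The median difference was 0.41, against -0.02 over all genes, and 26 of 30 members were above 0, against 45.2% of all genes.

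The lowest adjusted p-values of the interaction were those of *Pmvk*, 0.63 ± 0.14 (adjusted p = 0.118), *Hmgcs1*, 0.61 ± 0.14 (adjusted p = 0.198), *Idi1*, 0.77 ± 0.19 (adjusted p = 0.249), and *Hsd17b7*, 0.71 ± 0.18 (adjusted p = 0.279). *Mvd* had the largest interaction, 0.82 ± 0.23, followed by those of *Idi1*, *Hsd17b7*, *Insig1* (0.69 ± 0.24), *Lss* (0.65 ± 0.26), *Pmvk*, *Fdps* (0.61 ± 0.18) and *Hmgcs1*. At the other end were *Scarb1*, *Stard4* (-0.16 ± 0.20), *Mbtps1* (-0.05 ± 0.14) and *Mbtps2* (-0.02 ± 0.13). Without WT PCN replicate 4, *Pmvk*, *Hmgcs1* and *Idi1* passed, with an adjusted p of 0.0238, 0.024 and 0.0463. Each passed in only 1 of the 23 fits that left out 1 array, and over these fits their adjusted p reached 0.237, 0.433 and 0.49.

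**Figure D3:**
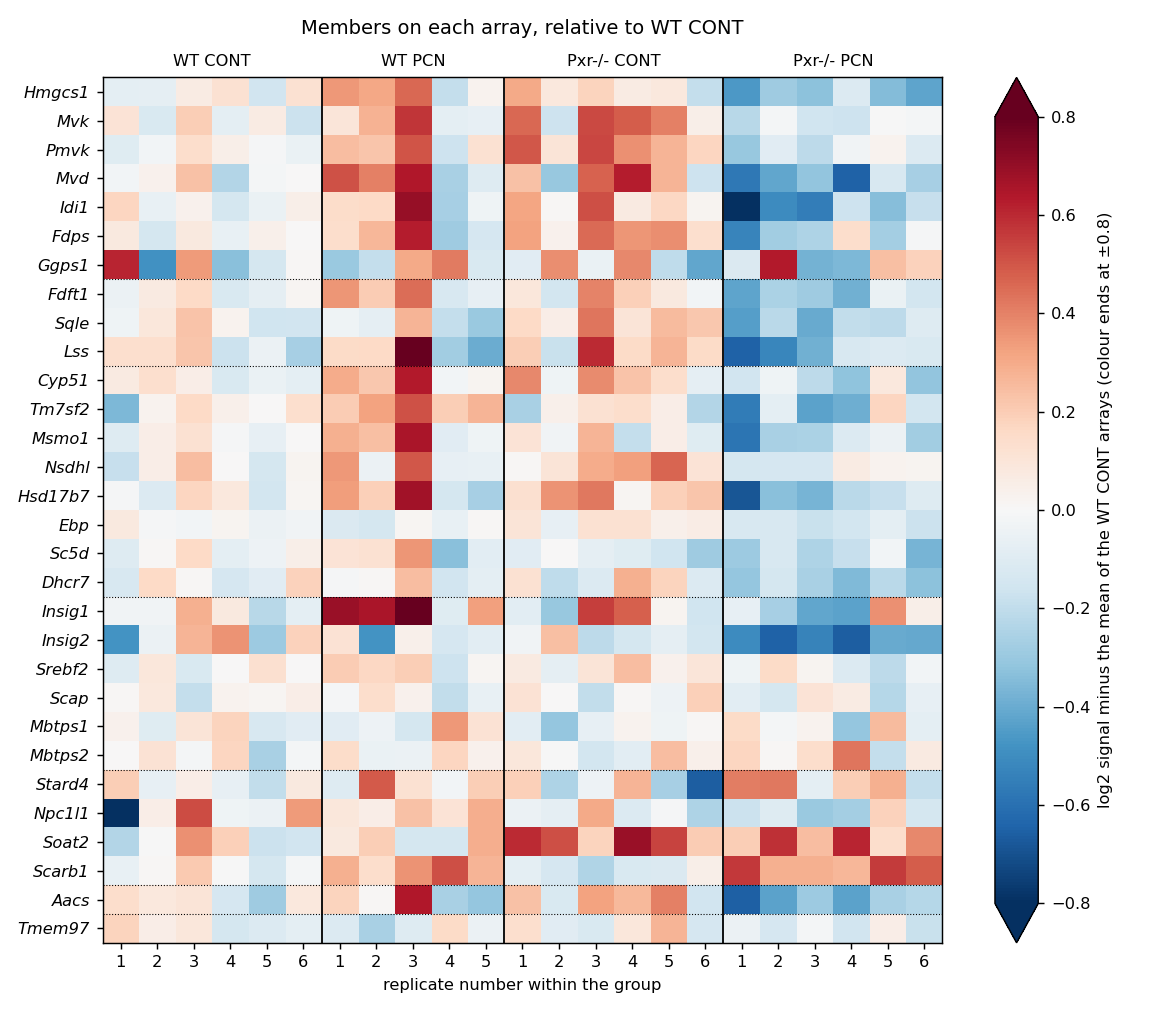
Log2 signal of each member on each of the 23 arrays minus the mean of the WT CONT arrays, in pathway order, with red above and blue below that mean. Among the enzymes, WT PCN replicates 1 to 3 are mostly red and Pxr-/- PCN arrays mostly blue, while Scarb1 is red in both PCN groups.

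Averaged over the 18 enzymes from *Hmgcs1* to *Dhcr7*, and relative to the WT CONT mean, Pxr-/- CONT arrays had 0.14 ± 0.13 (SD, n = 6) and Pxr-/- PCN arrays -0.22 ± 0.12 (n = 6). The WT PCN arrays had 0.13 ± 0.25 (n = 5), with single values of 0.17, 0.15, 0.51, -0.12 and -0.07. All 6 Pxr-/- PCN arrays lay below all Pxr-/- CONT arrays, whereas WT PCN reached from below the controls to above them. Replicate 3, the highest, was also an array with high B cell markers. Without it the median change of the members in WT was 0.06.

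**Figure D4:**
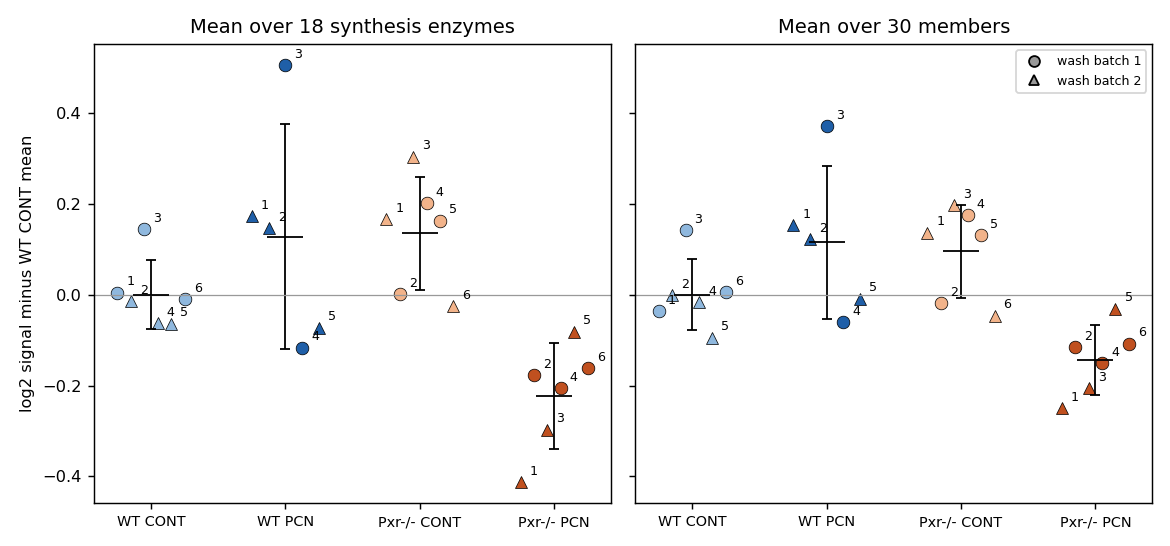
Mean over the 18 synthesis enzymes (left) and the 30 members (right) on each array, as log2 signal minus the WT CONT mean, with replicate numbers, the group mean and SD. Circles are wash batch 1 and triangles wash batch 2. The Pxr-/- PCN group has the lowest mean and WT PCN the largest SD in both panels, while WT PCN replicate 4 lies below the highest Pxr-/- PCN array.

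Other transcripts moved with these results. Smooth muscle markers had a higher mean under PCN in 6 of 6 genes in both genotypes, 3 of them at an adjusted p of at most 0.05 in Pxr-/- mice, and the mean log2 level of the 6 genes per array ran from 14.14 to 14.67 in Pxr-/- CONT and from 14.46 to 15.34 in Pxr-/- PCN. In WT mice it ran from 14.06 to 14.42 and from 14.21 to 15.00. With this level as a covariate, chosen after seeing the data, 0 members passed in Pxr-/- mice, while the median change stayed at -0.28 and 17 members had an unadjusted p of at most 0.05 for the interaction. In bulk tissue, fewer cells of a type and less RNA per cell cannot be told apart.

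Neutrophil markers ran from 7.66 to 8.38 in Pxr-/- CONT and from 8.62 to 10.42 in Pxr-/- PCN, with 3 of 5 tested genes higher (adjusted p at most 0.05). Below background on some arrays were *Cxcr2*, *Retnlg* and *S100a8*. In WT mice the neutrophil markers ran from 7.44 to 8.23 in CONT and from 8.31 to 9.62 under PCN, with 2 of 5 genes higher. Macrophage markers, all 6 above background, ran from 9.95 to 10.51 and from 10.44 to 10.73 in Pxr-/- mice and from 10.11 to 10.48 and from 10.28 to 10.67 in WT mice. In Pxr-/- mice crypt and proliferation markers, all 8 above background, ran from 9.61 to 10.52 and from 9.52 to 10.28. In WT mice they ran from 9.95 to 10.28 and from 9.61 to 10.09. Their median change with PCN was -0.29 in Pxr-/- mice (5 of 8 lower) and -0.21 in WT mice (8 of 8 lower). None passed. At an unadjusted p of at most 0.05, 4 were lower in Pxr-/- mice (11.3% of all genes) and 1 in WT mice (7.73%). The 8 enterocyte markers ran from 15.39 to 15.80 and from 15.48 to 15.97 in Pxr-/- mice. The part of the neutrophil and macrophage markers in the result was not tested, and with the crypt markers as a covariate 13 members fell in Pxr-/- mice.

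Without PCN, no member differed between genotypes at an adjusted p of at most 0.05 (0.0846% of all genes were higher and 0.243% lower in Pxr-/-). At an unadjusted p of at most 0.05, 6 of 30 were higher in Pxr-/- mice, against 4.61% of all genes, namely *Mvk*, *Pmvk*, *Fdps*, *Sqle*, *Nsdhl* and *Soat2*, and none was lower, against 5.71%. The median difference was 0.08. This comparison shares the Pxr-/- CONT arrays with the PCN comparison in Pxr-/- mice, so a low or high control array enters both.

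Under PCN, 2 members were lower in Pxr-/- than in WT mice at an adjusted p of at most 0.05, against 0.722% of all genes. They were *Hmgcs1*, at -0.52 ± 0.10 (adjusted p = 0.0163), and *Tm7sf2*, at -0.55 ± 0.12 (adjusted p = 0.0267), whose groups did not overlap, as for 0.891% of all genes downward. Leaving out 1 array gave 0 to 8 such members, with 0 without WT PCN replicate 2 or 3 and 8 without WT PCN replicate 4. Over 16 other settings *Hmgcs1* was lost in 7 and *Tm7sf2* in 4, both without the 3 arrays with high B cell markers. At an unadjusted p of at most 0.05, 18 of 30 were lower, against 3.91% of all genes, and 1, *Soat2* at 0.30 ± 0.12, was higher, against 4.6%. The median difference was -0.28, and it was -0.12 without the 3 arrays with high B cell markers. *Idi1* stood at -0.59 ± 0.14 (adjusted p = 0.0544).

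After group and wash batch means were removed, the enzymes still varied together from mouse to mouse. The median Pearson correlation over the 23 arrays was 0.56 among the 153 pairs of synthesis enzymes, 0.23 among the 435 pairs of members and -0.02 between members and all other genes. Arrays, their RNA yield and their composition are shared by all genes, so these are descriptions. Among the members, *Pmvk* (0.93), *Fdft1* (0.90) and *Aacs* (0.89) were most like the members' average profile. *Mbtps2* (-0.26), *Mbtps1* (-0.13), *Scap* (-0.12), *Scarb1* (-0.01) and *Tmem97* (0.01) were least like it. The average includes the member itself, which raises a member's value, so these values cannot be set against those of genes outside the set.

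Among genes outside the set, the 10 most like that profile over 23 arrays were *Scd2* (0.86), *Aldoc* (0.83), *Rdh11* (0.78), *Acat3* (0.78), *Gm9564* (0.76), *Tor2a* (0.75), *Cdk2ap2* (0.75), *Gm35822* (0.75), *Fam117b* (0.73) and *BB283400* (0.73). The *Acat3* value is that of the probe shared with *Acat2*. These genes were chosen for their likeness, which is therefore not tested.

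**Figure D5:**
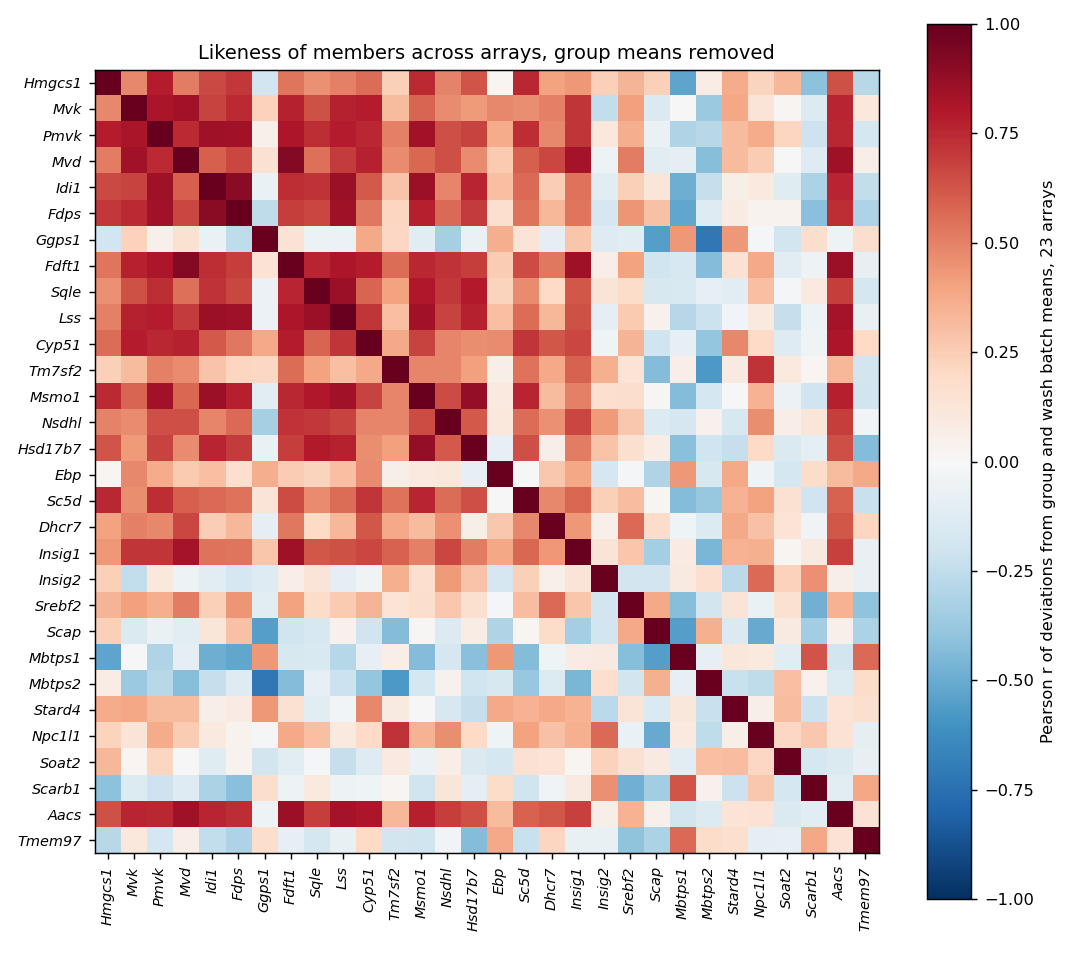
Pearson correlation between members over the 23 arrays after group and wash batch means were removed, in pathway order. The enzymes, Insig1 and Aacs form a red block, whereas Ggps1, Ebp, Insig2, the proteases and Scarb1 stand outside it.

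Other genes of sterol and isoprenoid metabolism are given by their lists, at an adjusted p of at most 0.05, where 1.44% of all genes rose in WT mice, 3.2% rose in Pxr-/- mice and 1.79% fell there. Of 10 sterol enzymes and genes of electron supply, 2 rose in WT mice, *Cyb5a* (0.72 ± 0.10) and *Por* (0.62 ± 0.11), the cytochrome P450 reductase. In Pxr-/- mice *Por* rose (0.38 ± 0.10) and *Erg28*, an endoplasmic reticulum scaffold of the C4 demethylation complex, fell (-0.27 ± 0.07).

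Of 14 tested genes of isoprenoid use, 3 fell in Pxr-/- mice: *Dhdds* (-0.40 ± 0.09) and *Nus1* (-0.39 ± 0.09), the subunits of the dolichol synthase, and *Pdss2* (-0.32 ± 0.08), of ubiquinone synthesis. Geranylgeranyl transferase subunit *Rabggta* rose in WT mice (0.37 ± 0.08). As a list these genes did not part the genotypes, with 12 of 14 lower under PCN in each. Their medians were -0.10 in WT and -0.12 in Pxr-/- mice, against -0.02 and 0.00 over all genes, and the interaction median was 0.02. None of 14 genes of intracellular sterol transport passed in either genotype; at an unadjusted p of at most 0.05, 3 were higher in WT mice (7.21% of all genes), and 5 were higher (11.9%) and 1 lower (11.3%) in Pxr-/- mice.

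Of 16 genes of SREBP retention, escort and degradation, *Sar1b*, of the COPII coat, rose in WT mice (0.40 ± 0.08) and *Sec24c*, another coat gene, fell in Pxr-/- mice (-0.22 ± 0.05). Of 12 fatty acid enzymes under SREBP, *Elovl6*, a fatty acid elongase, rose in WT mice (0.47 ± 0.10) and *Fasn*, the fatty acid synthase, fell in Pxr-/- mice (-0.43 ± 0.10). For *Elovl6* the difference between the PCN effects passed, at 0.75 ± 0.14 (adjusted p = 0.0407), as for 0.118% of all genes. The medians of the 12 were 0.06 in WT and -0.13 in Pxr-/- mice.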

How the data were processed

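Ileum RNA of 23 mice was hybridized to Agilent one-colour arrays. The spot values are intensity per the file headers (Agilent Feature Extraction 10.10.1.1 per the labels). The authors also deposited a log2 table, filtered, corrected for wash batch and normalized with CrossNorm. Here the median spot signal was taken to log2, outlier and control spots were removed, probes averaged and arrays quantile normalized. Probes well above background on at least 50% of the arrays of a group were kept (37591 of 56605), and 61 values were missing. Tables were read with data.table (release 1.17.8) under R 4.3.3. Group and wash batch were fitted in limma 3.58.1 with 5 contrasts, moderated 2-sided tests and Benjamini-Hochberg adjustment over all probes. Genes were called when the fold change exceeded 1.5 and the adjusted p did not exceed 0.05, unless adjusted p alone is named. Members and other genes said to have fallen, risen or passed met that adjusted p alone. The deposited table was an alternative, and its values for the members differed from those used by a median of 0.0248 log2 units. The fit was tested on simulated data whose added effects were larger than any difference of a member here, so detection of changes of this size was not tested. Precision is limited by the 5 or 6 arrays, each from a separate mouse, per group. Full values are given for members at an adjusted p of at most 0.05 in any contrast and for the 8 with the largest interaction, and the 10 most similar other genes are named. The members and lists were chosen with earlier results of these data known.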

Additional observations from a re-analysis of the deposited data

Results flagged for a closer look

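Groups of 5 or 6 arrays were searched for a sample far from the others, for the 14 members with full values and for the mean over the members and over the synthesis enzymes. In all, 64 groups were tested, of which chance would set apart about 1 in 20, and 2 stood out. *Tm7sf2* in WT CONT replicate 1 was at 12.12, with the nearest control at 12.48, and without that array the PCN difference in WT was 0.23 (adjusted p = 0.437). The mean over the synthesis enzymes in WT CONT replicate 3 was 0.14 above the WT CONT mean, with the nearest control at 0.00.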

How the results depend on the processing

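Settings that moved a count by over 1.5 times, or a median by more than the 0.13 SD between arrays, were the following. Members called in Pxr-/- mice (1) became 2 with the processed signal, 4 with median centring, 0 within wash batch 1, 2 within wash batch 2 and 11 with no fold threshold. Members at an adjusted p of at most 0.05 that fell there (10) became 0 within wash batch 1 and 2 within wash batch 2, where fewer arrays were fitted, while 27 and 24 of 30 members were lower. Among settings chosen after seeing the data, smooth muscle markers as a covariate gave 0 and 0, crypt markers 2 called, and leaving out the 3 arrays with high B cell markers 0 called (7 fell), an interaction median of 0.25 (11 members at an unadjusted p of at most 0.05) and a genotype median under PCN of -0.12. Genotype differences called under PCN (0) became 1 with the deposited table, normexp, the stricter filter, the slide as random block, the slide as fixed block or smooth muscle as covariate, and 2 with a gene's mean probe or no fold threshold. Members lower there at adjusted p alone (2) became 4 with the deposited table, normexp or a gene's mean probe, 1 with median centring, the replicate block or smooth muscle as covariate, and 0 with the processed signal, within either wash batch and without the 3 arrays with high B cell markers. The interaction at an unadjusted p of at most 0.05 (17) became 3 within wash batch 1. *Scarb1* in WT mice made 1 in place of 0 members higher at adjusted p alone with the deposited table, the stricter filter, no wash batch term, the slide as random block or a gene's mean probe. The cause was not tested.

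Leaving out 1 array gave 3 to 14 members that fell in Pxr-/- mice (4 without Pxr-/- CONT replicate 1, 3 without Pxr-/- PCN replicate 1, and 6 without Pxr-/- CONT replicate 3 or 5 or Pxr-/- PCN replicate 2 or 5), 0 to 3 called there (0 without Pxr-/- CONT replicate 1 or 3 or Pxr-/- PCN replicate 1), 0 to 3 for the interaction and 0 to 6 for genotype under PCN, both highest without WT PCN replicate 4. Counts of PCN in WT and of genotype without PCN stayed at 0 called, and the 5 medians kept their signs, in all these fits.

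The main fit did not pair mice by replicate number. Of 33 same-numbered pairs, 8 had a correlation of deviations over 0.1 (range -0.30 to 0.40). Pairs with different numbers were not compared, so these values cannot settle whether the numbers pair mice. With the replicate block, 6 members fell in Pxr-/- mice in place of 10.

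No value at an adjusted p of at most 0.05 changed sign. Among the 14 members with full values, those that did were the WT changes of *Idi1* (-0.053), *Fdps* (-0.087), *Lss* (-0.19), *Hsd17b7* (-0.023) and *Aacs* (-0.12) without the 3 arrays with high B cell markers. Within wash batch 1 those of *Sqle* in WT (0.027) and *Scarb1* under PCN (-0.094) turned. The genotype difference without PCN turned for *Tm7sf2* with the processed signal (0.0030), within wash batch 1 (0.10) and with its probes averaged (0.014), and for *Insig2* within wash batch 1 (0.018). Leaving out 1 array gave -0.10 to 0.27 for *Lss* and -0.081 to 0.17 for *Aacs* in WT, and without PCN -0.11 to 0.020 for *Tm7sf2*, -0.0068 to 0.16 for *Insig1* and -0.16 to 0.020 for *Insig2*. Among the other 16 members, 24 of 256 PCN differences in WT and 10 of 256 in Pxr-/- mice turned over the settings that kept all arrays or left out several. The dim second *Scarb1* and *Sqle* probes and 5 to 6 arrays per group limit what can be detected.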
